A study of Mus musculus with 9 samples.

Results

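The 10 genes described here encode the machinery that makes and loads the peptides shown on MHC class I: the catalytic subunits of the immunoproteasome (Psmb8, Psmb9 and Psmb10), its PA28 activator (Psme1 and Psme2), the peptide transporter (Tap1 and Tap2), the peptide editors tapasin and TAPBPR (Tapbp and Tapbpl), and the trimming peptidase Erap1. They were chosen by symbol and function, with earlier results of these data known, and all 10 were found among the 40879 gene symbols of the count files. Expression was measured in type 2 conventional dendritic cells (cDC2s), which were flow-sorted after 9 days of mouse bone marrow culture in 100 ng/ml Flt3L, in 3 groups of 3 libraries. The A20iKO group has the genotype A20fl/fl x CD11ccre, in which Cre under the CD11c promoter deletes the floxed gene for A20 (Tnfaip3), a ubiquitin-editing brake on NF-kB signalling; deletion thus depends on CD11c being active in a cell. The WT+IFNa group is wild type with interferon alpha added on day 5, at a dose the labels do not state, and the WT group is wild type. A treatment field names interferon alpha for all 9 samples, but the titles and a separate entry name it only for the WT+IFNa group, so that the A20iKO and WT cultures were left without it rests on those labels. The labels state neither age nor strain. The design text counts 3 mice per group, but whether each library is 1 mouse is not stated, so SDs and p-values measure the spread between libraries.

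The proteasome cuts cytosolic proteins into peptides, and in immune cells its constitutive catalytic subunits can be exchanged for the immunoproteasome subunits, whose cuts favour peptides with the hydrophobic or basic ends that class I molecules and the transporter accept. TAP pumps those peptides into the endoplasmic reticulum, where ERAP1 shortens them and tapasin and TAPBPR help class I molecules to keep the tightly binding ones. Most of these genes are known interferon targets, and in dendritic cells the pathway serves presentation of both the cell's own and captured proteins to CD8 T cells.

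Promoter sequence of the members was taken from RefSeq (table build GRCm38.p6), since interferon and NF-kB signals are known to act through short motifs near start sites. The table holds windows of 300 bases, 250 before to 50 after a start site, for 8 of the 10 genes (9 windows); Tap2 and Tapbpl were not among them. Windows were searched on both strands for the interferon-stimulated response element (ISRE: GAAA, any 2 bases, GAAA) and the gamma-activated site (GAS: TTC, any 3 bases, GAA). They were also searched for the NF-kB consensus (GGG, a purine, any 2 bases, 2 pyrimidines, CC). An ISRE lay in the windows of Psme1 and Erap1, a GAS in that of Psmb8, and none of the 9 windows held the NF-kB consensus. Of all 32851 windows in the table, 3.44% held this ISRE, 8.30% this GAS and 8.46% the NF-kB consensus. The 2 ISREs are shown, with capitals marking the motif, here on the strand opposite to the search string. Neither of the genes that carry them was called in the edgeR fit of the 3 groups used throughout below. Whether a motif bears on the level of its gene was not tested. The Psme1 element is at chr14:55578493-55578522, plus strand, with the motif 9 to 18 bases after the start site, and the Erap1 element is at chr13:74639839-74639868, plus strand, with the motif 4 bases before to 5 after it.
Psme1 ISRE: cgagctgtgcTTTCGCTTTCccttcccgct
Erap1 ISRE: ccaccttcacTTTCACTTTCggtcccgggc

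Psmb9 and Tap1 are transcribed away from each other on chromosome 17, with start sites at positions 34187330 and 34187556, and share the stretch between them. The 225 bases between (chr17:34187331-34187555, plus strand, Psmb9 to the left and Tap1 to the right) are shown as the stretch common to both genes. No motif of the 3 was in the window of either gene, and so no base is in capitals. The 150 bases before the Psmb8 start site (chr17:34198045-34198194, plus strand) hold the GAS, in capitals, 97 to 89 bases before it. A match is a description of the letters and shows no binding. Only exact matches were searched, so a miss does not show that a gene lacks such a site.
Psmb9 to Tap1: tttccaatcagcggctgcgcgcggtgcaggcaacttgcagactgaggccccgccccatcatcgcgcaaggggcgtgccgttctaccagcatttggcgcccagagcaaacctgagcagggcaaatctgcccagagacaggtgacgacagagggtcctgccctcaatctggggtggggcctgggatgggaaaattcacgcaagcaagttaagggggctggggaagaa
Psmb8 upstream: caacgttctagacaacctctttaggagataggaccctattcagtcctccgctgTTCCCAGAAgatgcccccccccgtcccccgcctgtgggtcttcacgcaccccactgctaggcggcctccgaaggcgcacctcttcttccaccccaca

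Each deposited value is a whole-number count of 3′ tags per gene, with total counts of 7187359 to 9518822 in A20iKO, 7041519 to 10246810 in WT+IFNa and 6900598 to 10552756 in WT. The long noncoding Gm26917 took 12.3 to 13.8% of the counts in A20iKO, 12.2 to 17.3% in WT+IFNa and 5.21 to 11.4% in WT, and the same members were called without it. The cDC2 markers were present in all libraries, with a summed level of 1257 to 1432 CPM in A20iKO, 2054 to 2565 CPM in WT+IFNa and 1876 to 2524 CPM in WT, and 5 of the 8 were called lower and 2 higher in A20iKO than in WT. Markers of mature dendritic cells summed to 1449 to 1685 CPM in A20iKO, 535 to 629 CPM in WT+IFNa and 192 to 271 CPM in WT, and those of monocytes and macrophages to 1859 to 2146, 767 to 846 and 702 to 884 CPM in the same groups. Neutrophil markers summed to 266 to 380.02 CPM in A20iKO, 272 to 333 CPM in WT+IFNa and 87.3 to 108 CPM in WT, with Ly6g at 0, and cDC1 markers to 52.1 to 90.8, 221 to 258 and 412 to 500.2 CPM. Markers common to dendritic cells summed to 6346 to 7503 CPM in A20iKO, 8883 to 10865 CPM in WT+IFNa and 12832 to 16296 CPM in WT. Plasmacytoid dendritic cell markers summed to 785 to 1010 CPM, 793 to 934 CPM and 584 to 733 CPM in the same groups, but did not move alike. Among 6 of them tested, 4 were called higher and 1 lower (Siglech, 63.0 ± 13.6 against 242 ± 29.4 CPM) in A20iKO than in WT. In WT+IFNa over WT 1 was called higher and 0 lower: Bst2, which is also interferon-stimulated. Erythroid markers stood at 426 CPM in A20iKO replicate 1 and at 55.8 to 94.2 CPM in the other 8 libraries. T and NK cell markers reached at most 6.85 CPM and B cell markers 3.69 CPM. Stromal transcripts, such as collagens, differed within each group and were highest in A20iKO replicate 1 (4286 CPM), WT+IFNa replicate 3 (4675 CPM) and WT replicate 2 (4505 CPM). Tnfaip3 had 285, 476 and 377 counts in A20iKO, 73, 84 and 74 in WT+IFNa and 232, 51 and 42 in WT. By edgeR it was called higher in A20iKO than in WT (log2 fold change 1.95, adjusted p = 0.0280). It was also called higher than in WT+IFNa (log2 fold change 2.19, adjusted p = 0.0257). The labels do not say which exons are floxed, and a tag from outside them does not check the deletion.

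Most of the 10 genes were higher in WT+IFNa than in WT, and fewer were called in A20iKO. In WT+IFNa 6 of the 10 genes were called higher than in WT (Psmb9, Psmb10, Psme2, Tap1, Tapbp and Tapbpl) and 0 lower, where 2.4% of all 13251 genes tested were called higher and 0.702% lower (edgeR quasi-likelihood test, Benjamini-Hochberg adjusted p under 0.05). In A20iKO 3 were called higher than in WT (Psmb10, Tap1 and Tapbpl) and 0 lower, where 5.77% of all genes tested were called higher and 4.91% lower. Between A20iKO and WT+IFNa no member was called by edgeR, where 2.05% of all genes were called higher and 3.41% lower. In the same contrast 4 members were lower and 0 higher at an unadjusted edgeR p under 0.05. DESeq2 called 3 lower (Psmb9, Tap1 and Tap2) and limma-voom 2 (Psmb9 and Tap2). The shares given are of edgeR calls at the adjusted threshold and cannot be set beside these further counts. The median log2 fold change of the members was 0.39 in A20iKO over WT and 0.81 in WT+IFNa over WT, against -0.01 and -0.02 over all genes; these comparisons share the WT libraries. With a library left out, 1 member (without A20iKO replicate 3) to 5 (without A20iKO replicate 1) were called in A20iKO over WT, and 3 (without WT replicate 3) to 7 in WT+IFNa over WT. Over all genes, 478 to 750 were then called higher in A20iKO than in WT, and 225 to 319 in WT+IFNa than in WT. In A20iKO over WT+IFNa the median was -0.29, against 0.02 over all genes.

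**Figure D1:**
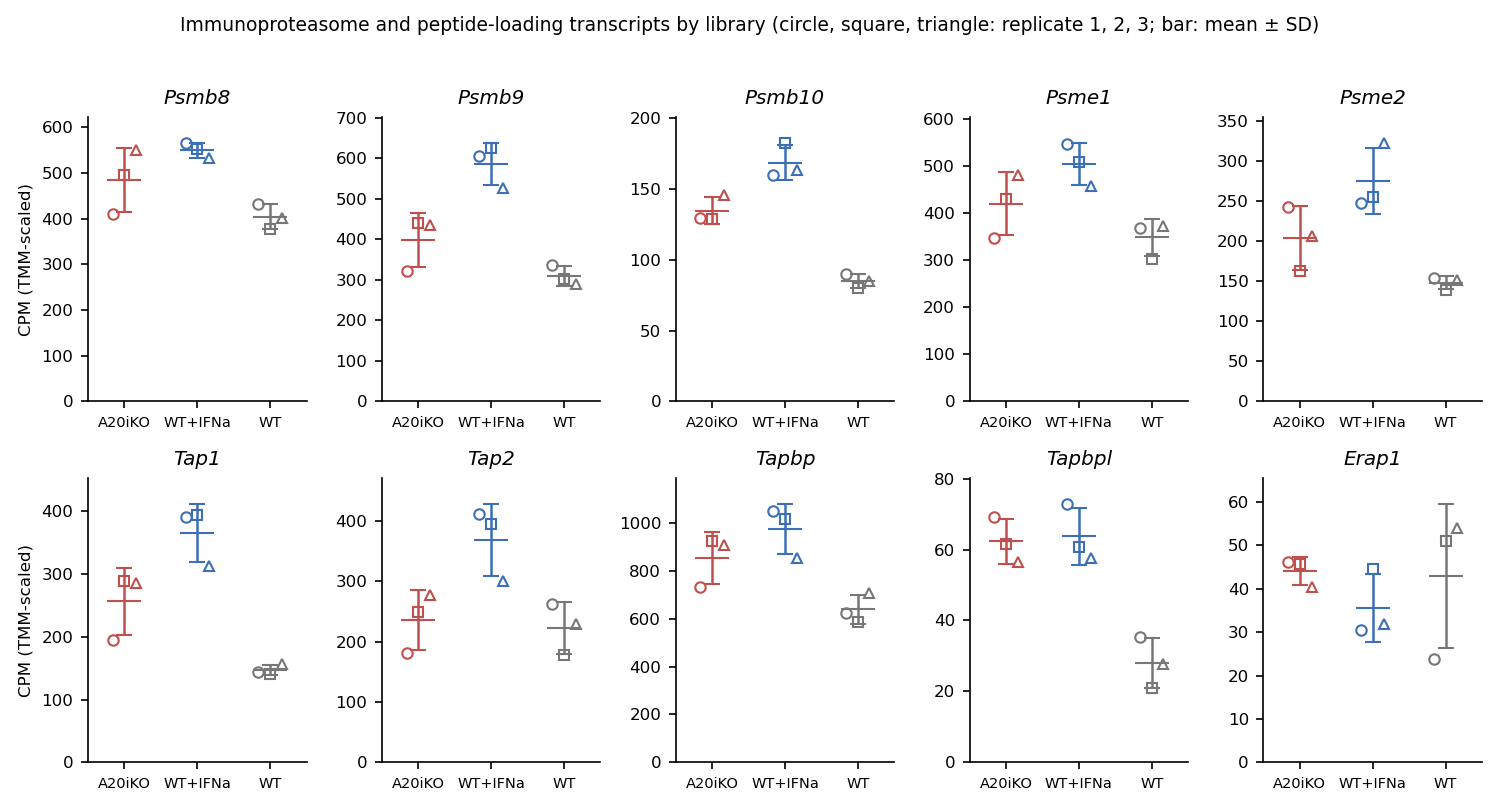
Level of each of the 10 genes (TMM-scaled CPM, linear axis from 0) in each of the 9 libraries, by group, with the mean of 3 and its SD. In 9 panels the mean runs WT+IFNa, A20iKO, WT from high to low; Erap1 is the exception, with overlapping groups.

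Levels below are CPM, the count of a gene relative to the TMM-scaled total of its library, in replicate order 1, 2, 3, with means ± SD of n = 3 libraries. For 9 genes the group means ran in the order WT+IFNa, A20iKO, WT from high to low. For 2 of them the order was not firm. The sign changed in 4 of 21 alternative settings for Tapbpl in A20iKO over WT+IFNa, and in 3 for Tap2 in A20iKO over WT. Only for Psmb10, Psme2 and Tap1 did all 3 groups' libraries stand apart from each other at both steps. The shares of all genes that had this order or stood apart at both steps were not computed. Libraries of WT+IFNa lay wholly above those of WT for 9 of the 10 genes, where 9.77% of all genes tested did so. Libraries of A20iKO lay wholly above those of WT for 5 genes, against 15.4% of all genes, and wholly below those of WT+IFNa for 5, against 12.3% of all genes.

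Calls differed between the catalytic subunits, and whether their changes differ in size was not tested. Psmb10, which encodes the trypsin-like immunoproteasome subunit, had 129, 129 and 146 CPM in A20iKO, 160, 183 and 164 CPM in WT+IFNa and 90.1, 79.9 and 85.2 CPM in WT. Every A20iKO library was above every WT library and below every WT+IFNa library. Its level was 1.58-fold that of WT in A20iKO (log2 fold change 0.66, SE 0.151, edgeR adjusted p = 0.0120) and 1.98-fold in WT+IFNa (log2 fold change 0.99, SE 0.152, adjusted p = 0.00212). The A20iKO call was lost without A20iKO replicate 3 (adjusted p = 0.0677), and the WT+IFNa call held in all 21 alternative settings.

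Psmb9, which replaces the caspase-like Psmb6 subunit, had 321, 439 and 436 CPM in A20iKO, 605, 625 and 526 CPM in WT+IFNa and 337, 303 and 289 CPM in WT. The WT+IFNa libraries stood above both other groups, while A20iKO replicate 1 lay within the WT range. In WT+IFNa its level was 1.89-fold that of WT (log2 fold change 0.92, SE 0.154, edgeR adjusted p = 0.00395), a call kept in all 21 alternatives. In A20iKO the log2 fold change over WT was 0.36 (SE 0.153, adjusted p = 0.174), and without A20iKO replicate 1 it was 0.50 (adjusted p = 0.0498). Set against WT+IFNa, the A20iKO level had a log2 fold change of -0.56 (SE 0.153) at an adjusted p of 0.0540, just above the threshold, and the gene was called lower in 12 of 21 alternatives.

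Psmb8, the chymotrypsin-like subunit, averaged 485 ± 69.9 CPM in A20iKO, 550 ± 16.4 CPM in WT+IFNa and 405 ± 27.0 CPM in WT. Its libraries were 411, 495 and 550 CPM in A20iKO, 566, 552 and 533 CPM in WT+IFNa and 432, 379 and 403 CPM in WT. The WT+IFNa libraries all exceeded the WT ones, and the A20iKO libraries overlapped both. No contrast was called: the log2 fold change was 0.26 in A20iKO over WT (SE 0.137, edgeR adjusted p = 0.294) and 0.44 in WT+IFNa over WT (SE 0.137, adjusted p = 0.132), which DESeq2 (adjusted p = 0.0170) and the stromal covariate fit (adjusted p = 0.0128) called.

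Each immunoproteasome subunit takes the place of a constitutive one, so the share of the immuno form within each pair was computed from the counts of a library, which removes the scaling between libraries. For Psmb9 with Psmb6 the share was 63.3, 68.4 and 70.0% in A20iKO, 81.6, 83.1 and 82.2% in WT+IFNa and 80.7, 76.3 and 69.5% in WT. The difference of the means was -15.1 percentage points in A20iKO minus WT+IFNa, with no overlap, and -8.28 points in A20iKO minus WT, where WT replicate 3 lay within the A20iKO range. For Psmb10 with Psmb7 the mean was 66.5 ± 1.36% in A20iKO, 75.5 ± 1.18% in WT+IFNa and 65.8 ± 2.98% in WT, with WT+IFNa apart from both other groups. For Psmb8 with Psmb5 it was 95.1 ± 0.469%, 96.6 ± 0.919% and 94.7 ± 2.20% in the same groups, all overlapping. With 3 libraries against 3, an exact two-sided permutation test cannot give p below 0.1; that value was reached for Psmb9 and Psmb10 in both contrasts of WT+IFNa, 4 of the 9 tests (Benjamini-Hochberg adjusted p = 0.225). These are shares of 3′ tags, not of protein, and cannot say how many proteasomes carry either subunit.

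**Figure D2:**
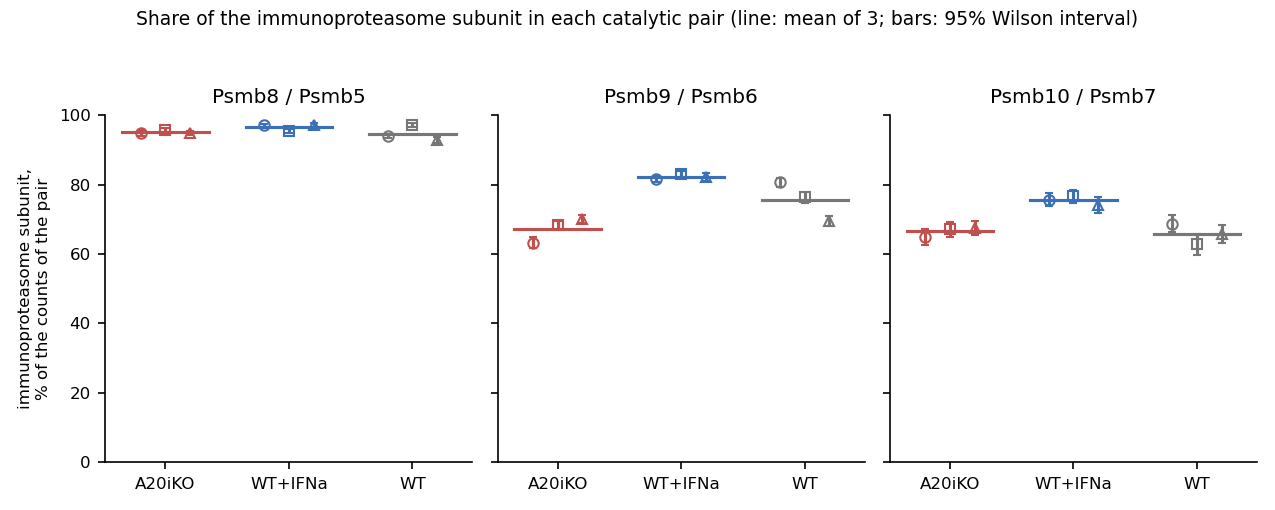
Share of the immunoproteasome subunit in the counts of each catalytic pair (percent, axis from 0 to 100), 1 point per library with its 95% Wilson interval, which covers counting error only; lines are means of 3. The WT+IFNa libraries stand above the A20iKO libraries for Psmb9 with Psmb6 and for Psmb10 with Psmb7.

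The constitutive partners had their own pattern. Psmb6 averaged 192 ± 9.80 CPM in A20iKO, 126 ± 11.3 CPM in WT+IFNa and 101 ± 23.6 CPM in WT; it was called higher in A20iKO than in WT (log2 fold change 0.93, SE 0.183, edgeR adjusted p = 0.00477), in all 21 alternatives too. Psmb7 averaged 67.7 ± 3.81 CPM in A20iKO, 54.6 ± 2.92 CPM in WT+IFNa and 44.1 ± 3.17 CPM in WT, with an adjusted p of 0.0514 for A20iKO over WT. Psmb5 averaged 24.9 ± 4.54 CPM, 19.5 ± 5.53 CPM and 23.3 ± 10.5 CPM in the same groups, none of them apart. In A20iKO both Psmb10 and Psmb6 were thus higher than in WT, while in WT+IFNa over WT none of the 3 partners was called by edgeR, DESeq2 or limma-voom, and 0 had an unadjusted p under 0.05.

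The PA28 activator, a ring of PSME1 and PSME2 that opens the end of the proteasome, was called in part. Psme2 had 243, 163 and 206 CPM in A20iKO, 247, 255 and 322 CPM in WT+IFNa and 154, 139 and 151 CPM in WT. The 3 groups did not overlap. Its level in WT+IFNa was 1.86-fold that of WT (log2 fold change 0.89, SE 0.176, edgeR adjusted p = 0.0126), a call lost without WT+IFNa replicate 3 (adjusted p = 0.0742) or WT replicate 3 (adjusted p = 0.0502). In A20iKO the log2 fold change over WT was 0.46 (SE 0.176, adjusted p = 0.127).

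Psme1, the other PA28 chain, had 348, 431 and 482 CPM in A20iKO, 548, 508 and 458 CPM in WT+IFNa and 370, 303 and 374 CPM in WT. The WT+IFNa libraries exceeded those of WT, and A20iKO overlapped both. Its log2 fold change was 0.27 in A20iKO over WT (SE 0.155, edgeR adjusted p = 0.352) and 0.53 in WT+IFNa over WT (SE 0.155, adjusted p = 0.103). Neither change was called by edgeR, but 2 of 21 alternatives called the WT+IFNa change: DESeq2 (adjusted p = 0.0102) and the fit with a stromal covariate described below (adjusted p = 0.00347). A near copy, Psme2b, was counted apart from Psme2 at 30.1 ± 3.89 CPM in A20iKO, 50.4 ± 15.1 CPM in WT+IFNa and 24.6 ± 7.61 CPM in WT. How reads common to both were split is not stated, so the Psme2 level is uncertain.

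Tap1, a chain of the peptide transporter, showed the widest WT+IFNa change of the 10 genes. It had 195, 289 and 286 CPM in A20iKO, 391, 394 and 312 CPM in WT+IFNa and 144, 141 and 157 CPM in WT. All A20iKO libraries lay above all WT libraries and below all WT+IFNa libraries. The level was 1.74-fold that of WT in A20iKO (log2 fold change 0.80, SE 0.175, edgeR adjusted p = 0.00934) and 2.49-fold in WT+IFNa (log2 fold change 1.31, SE 0.177, adjusted p = 0.00070). The A20iKO call was lost without A20iKO replicate 2 (adjusted p = 0.0574) or replicate 3 (adjusted p = 0.0534), and the WT+IFNa call held in all 21 alternatives.

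Tap2, the partner chain with which TAP1 forms the pore, had 181, 249 and 278 CPM in A20iKO, 411, 394 and 301 CPM in WT+IFNa and 262, 178 and 229 CPM in WT. The WT+IFNa libraries lay above the other two groups, which covered nearly the same range. Its log2 fold change was 0.08 in A20iKO over WT (SE 0.200, edgeR adjusted p = 0.887; -0.058 without A20iKO replicate 3 and -0.061 without WT replicate 2) and 0.72 in WT+IFNa over WT (SE 0.201, adjusted p = 0.0833), called in 6 of 21 alternatives. Against WT+IFNa, the A20iKO level had a log2 fold change of -0.65 (SE 0.201, adjusted p = 0.0922). In A20iKO, then, the Tap1 chain was called higher than in WT and the Tap2 chain was not; whether their changes differ was not tested.

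Tapbpl had the widest A20iKO change of the 10. TAPBPR, its product, edits the peptides of class I molecules outside the loading complex. The gene had 69.1, 61.5 and 56.5 CPM in A20iKO, 72.9, 60.7 and 57.5 CPM in WT+IFNa and 35.3, 21.0 and 27.7 CPM in WT. The A20iKO and WT+IFNa libraries covered nearly the same range and both groups stood clear of WT. The level was 2.23-fold that of WT in A20iKO (log2 fold change 1.15, SE 0.235, edgeR adjusted p = 0.00618), called in all 21 alternatives, and 2.27-fold in WT+IFNa (log2 fold change 1.18, SE 0.236, adjusted p = 0.0130). The WT+IFNa call was lost without WT+IFNa replicate 1 (adjusted p = 0.0793) or WT replicate 3 (adjusted p = 0.0534). Of all members Tapbpl had the smallest difference between A20iKO and WT+IFNa, a log2 fold change of -0.03 (SE 0.231, adjusted p = 0.985).

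Tapbp, which encodes tapasin, the bridge between TAP and class I molecules, had 730.2, 925 and 906 CPM in A20iKO, 1051, 1018 and 855 CPM in WT+IFNa and 624, 587 and 706 CPM in WT. Both A20iKO and WT+IFNa lay wholly above WT and overlapped each other. Its level was 1.53-fold that of WT in WT+IFNa (log2 fold change 0.61, SE 0.140, edgeR adjusted p = 0.0309), but the call was kept in only 12 of 21 alternatives: it was lost without A20iKO replicate 2 or 3, WT+IFNa replicate 1 or 2, or any WT replicate, with adjusted p up to 0.124. In A20iKO the log2 fold change over WT was 0.42 (SE 0.139, adjusted p = 0.0796), and without A20iKO replicate 1 it was 0.52 (adjusted p = 0.0356).

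Erap1, the peptidase that trims peptides in the endoplasmic reticulum, was the member whose groups did not separate anywhere. It had 46.1, 45.6 and 40.4 CPM in A20iKO, 30.4, 44.5 and 31.8 CPM in WT+IFNa and 23.7, 51.0 and 53.9 CPM in WT. WT held both the lowest and the highest library, and the SD of WT (16.6 CPM around 42.9 CPM) exceeded every difference between group means. The log2 fold change was 0.04 in A20iKO over WT (SE 0.304, edgeR adjusted p = 0.968) and -0.27 in WT+IFNa over WT (SE 0.305, adjusted p = 0.835). Without WT replicate 1, its lowest library, the A20iKO value over WT was -0.24 (adjusted p = 0.676). In the RefSeq annotation the Erap1 span overlaps that of Cast, the calpain inhibitor calpastatin, which had 67.5 ± 16.5 CPM in A20iKO, 130 ± 5.43 CPM in WT+IFNa and 152 ± 22.7 CPM in WT. Cast was called lower in A20iKO than in WT (log2 fold change -1.17, adjusted p = 0.00205), and since the strand setting of the counting is not stated, the Erap1 level is uncertain.

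**Figure D3:**
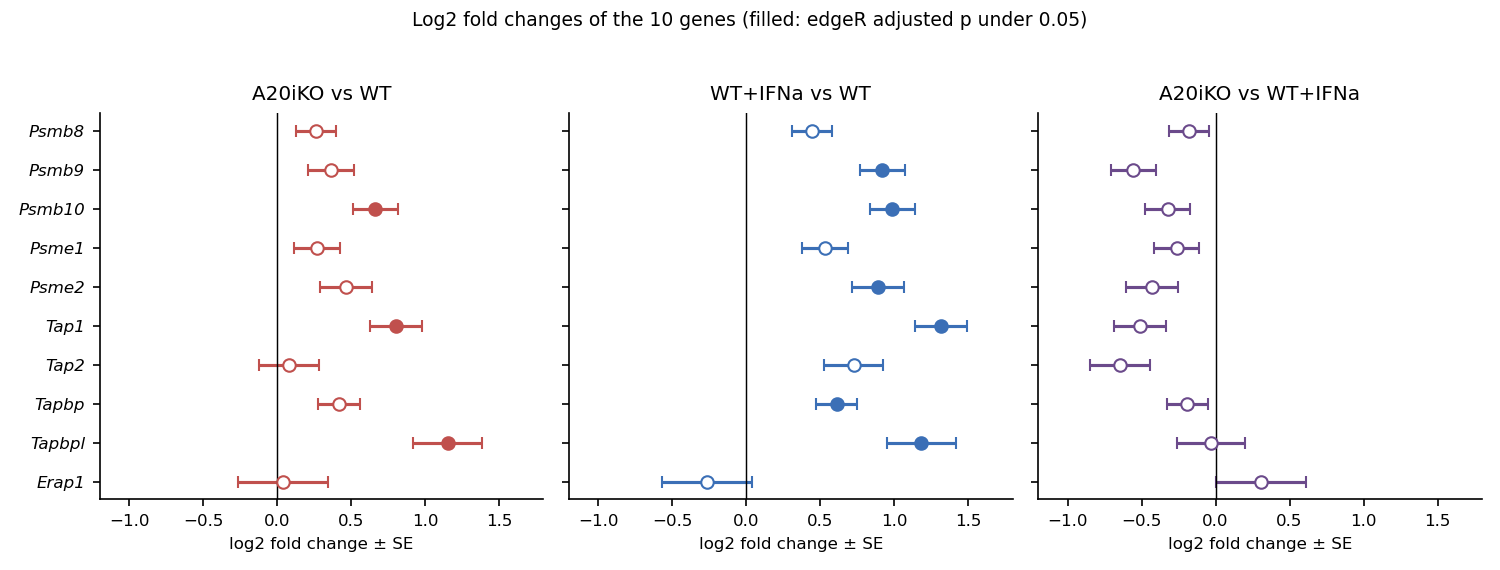
Log2 fold change ± SE of each of the 10 genes in A20iKO over WT, WT+IFNa over WT and A20iKO over WT+IFNa, from the edgeR fit of all 9 libraries; filled points have an adjusted p under 0.05. The WT+IFNa changes reach 1.31 (Tap1), the A20iKO changes 1.15 (Tapbpl), and no point is filled in the third panel.

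Within each group, 5 members were lowest in the library with the most stromal transcripts. Between the other libraries the order was not always opposite. In WT, replicate 3 had more stromal RNA than replicate 1 (1447 against 760.2 CPM). Tap1 (157 against 144 CPM) and Tapbp (706 against 624 CPM) were higher there too. Psmb8, Psme1, Tap1, Tap2 and Tapbp had their lowest level of every group in its stromal-rich library, that is A20iKO replicate 1, WT+IFNa replicate 3 and WT replicate 2. In all, 6, 7 and 8 of the 10 members were lowest in that library in A20iKO, WT+IFNa and WT. The share of all genes lowest there was not computed, so these counts are not shown to be particular to the members. Psme2 did the reverse in 2 groups, being highest in the stromal-rich libraries of A20iKO (243 CPM) and WT+IFNa (322 CPM). Stromal sums ranged from 467 to 4286 CPM in A20iKO, 595 to 4675 CPM in WT+IFNa and 760.2 to 4505 CPM in WT, so no group was without such a library, and the share of stromal RNA and a lower level per dendritic cell cannot be told apart in bulk RNA. More generally, more cells of a type and more RNA per cell cannot be told apart here.

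With the stromal level as a covariate, 5 members were called higher in A20iKO than in WT (Psmb10, Psme2, Tap1, Tapbp and Tapbpl), 9 in WT+IFNa than in WT (all but Erap1), and 3 lower in A20iKO than in WT+IFNa (Psmb9, Tap1 and Tap2). More genes were called in general: 1011 were higher in A20iKO than in WT, against 765 without the covariate. In WT+IFNa over WT 502 were higher, against 318, and in A20iKO over WT+IFNa 800 were lower, against 452. With the 3 stromal-rich libraries left out, a setting added after seeing the data, 5 were called higher in A20iKO than in WT (Psmb9, Psmb10, Tap1, Tapbp and Tapbpl), 6 in WT+IFNa than in WT (Psmb9, Psmb10, Psme2, Tap1, Tap2 and Tapbp), and 2 lower in A20iKO than in WT+IFNa (Psmb9 and Tap2). In that setting Tapbpl in WT+IFNa had an adjusted p of 0.0520, and over all genes 681 were called higher in A20iKO than in WT. The markers of mature dendritic cells and of monocytes and macrophages, given above, moved as well: of the 8 mature dendritic cell markers 7 were called higher and 0 lower in A20iKO than in WT, and 5 higher and 0 lower in WT+IFNa than in WT. Of the 10 monocyte and macrophage markers 8 were called higher and 1 lower (Adgre1) in A20iKO, and 3 higher and 2 lower (Adgre1 and Lyz2) in WT+IFNa, each against WT. Of 7 neutrophil markers tested, 3 were called higher (Mmp8, Mpo and Prtn3) and 2 lower (S100a8 and S100a9) in A20iKO than in WT, and 3 higher and 0 lower in WT+IFNa than in WT. The part of these cells in the member changes was not tested.

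**Figure D4:**
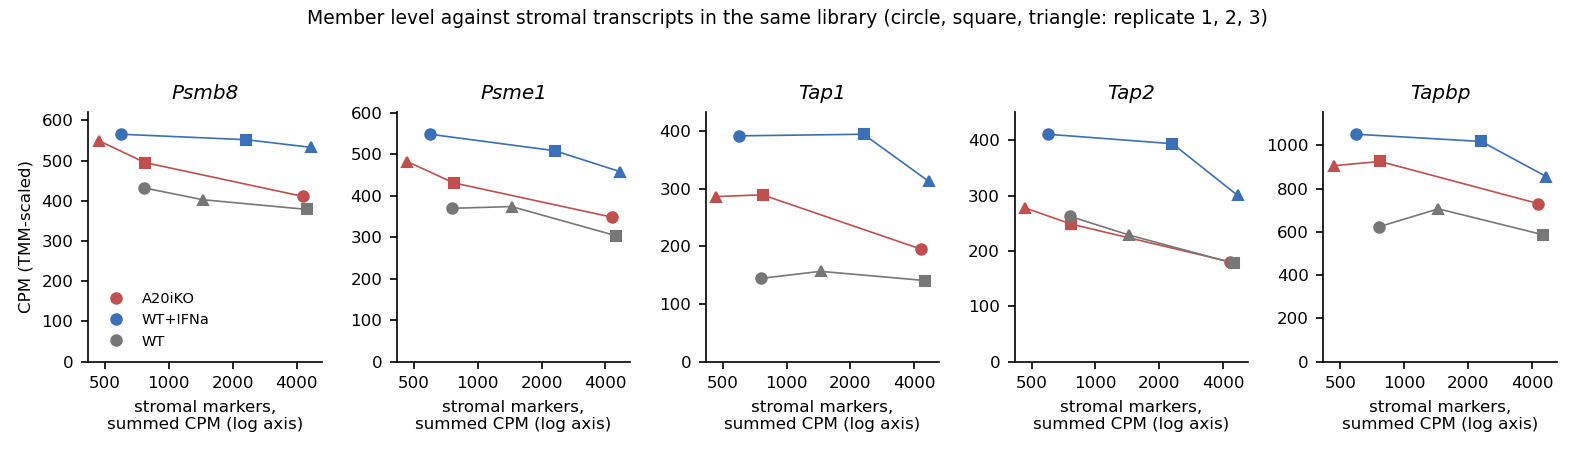
Level of the 5 members that were lowest in the stromal-rich library of every group (TMM-scaled CPM, linear axis) against the summed level of 8 stromal markers in the same library (log axis); lines join the 3 libraries of a group by stromal level. In each group the point furthest to the right is the lowest.

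Across the 9 libraries, with differences between groups included, the members other than Erap1 were positively correlated in pairs. Pearson's r of log2 CPM ran from 0.54 to 0.97 over their 36 pairs, with a median of 0.88, and from -0.47 to -0.09 over the 9 pairs with Erap1. The libraries of a group share treatment, so these values describe the group pattern and are no test. With each group's mean taken out, pairs without Erap1 no longer all had the same sign. For example, r was then 0.95 for Psme1 with Tap2 and 0.94 for Tap1 with Tapbp. It was -0.80 for Psme2 with Tap1 and -0.74 for Psmb9 with Psme2. The r of gene pairs outside the members was not computed. Genes outside the list were ranked by another measure, r with the averaged, scaled log2 CPM of a role group. The highest were picked, so their r cannot be set beside those of the pairs. Most like the catalytic subunits was Taldo1, a pentose phosphate enzyme (r = 0.99, 9 libraries, 8825 genes searched). It had 492 ± 82.3 CPM in A20iKO, 741 ± 39.2 CPM in WT+IFNa and 328 ± 24.7 CPM in WT. Daxx, H2-D1 and Cd300lf followed. Rnf213, Trim30a, Trim30d and Daxx were nearest to the activator, and Dtx3l, Ms4a6b, Ifi209 and Ubr4 to transport and loading, with r between 0.97 and 0.98. Nearest to Erap1 were Pabpn1 (r = 0.96), Tmem185b, Ap1g1 and Cnpy2.

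Few of the other proteasome subunits passed the test. Of the 11 other subunits of the 20S core, 1 was called higher in A20iKO than in WT (Psma4, log2 fold change 0.68, edgeR adjusted p = 0.0216). That call was lost without A20iKO replicate 1 or 2 or WT replicate 3, with adjusted p up to 0.101. In WT+IFNa over WT 0 were called by edgeR, DESeq2 or limma-voom, and 1 had an unadjusted p under 0.05. Psma6 was called higher in A20iKO than in WT+IFNa (log2 fold change 0.65, adjusted p = 0.0315), a call lost without any 1 of the 6 libraries compared. Of the 18 tested subunits of the 19S cap, which unfolds tagged proteins, Psmc1 alone was called by edgeR: it averaged 307 ± 17.4 CPM in A20iKO, 281 ± 26.6 CPM in WT+IFNa and 183 ± 6.10 CPM in WT (edgeR adjusted p = 0.00312 for A20iKO and 0.0261 for WT+IFNa, each over WT). The A20iKO call held in all 21 alternatives, and the WT+IFNa call in 10; it was lost without A20iKO replicate 2 or 3, WT+IFNa replicate 1 or 3, or any WT replicate, with adjusted p up to 0.120. The log2 fold change of A20iKO over WT was positive for all 18, with a median of 0.34, against 0.11 in WT+IFNa over WT. DESeq2 called 2 of the 18 higher in A20iKO than in WT, 1 in WT+IFNa than in WT and 1 in A20iKO than in WT+IFNa, where edgeR and limma-voom called 0 and edgeR had 2 at an unadjusted p under 0.05. None of the 11 other activators, inhibitors and assembly factors was called in any comparison by edgeR, DESeq2 or limma-voom (by edgeR 1 had an unadjusted p under 0.05 in A20iKO over WT), among them Pomp, the proteasome maturation factor, at 467 ± 116 CPM in A20iKO, 415 ± 144 CPM in WT+IFNa and 322 ± 27.6 CPM in WT.

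On the loading side the general chaperones stayed below the threshold and the class I chains did not. None of 5 chaperones of the loading complex, Calr, Canx and Pdia3 among them, was called in any comparison by edgeR; at an unadjusted p under 0.05 it had 1, higher in A20iKO than in WT+IFNa, where DESeq2 called 1 and limma-voom 0. Of 8 class I chains tested, 5 were called higher in A20iKO than in WT and 6 in WT+IFNa than in WT, while 4 were called lower in A20iKO than in WT+IFNa. B2m, the light chain common to all class I molecules, had 5142, 6475 and 6594 CPM in A20iKO, 8610, 7942 and 7091 CPM in WT+IFNa and 2693, 2842 and 2761 CPM in WT, and the 3 groups did not overlap. Its log2 fold change over WT was 1.13 in A20iKO (SE 0.114, edgeR adjusted p = 2.84e-05) and 1.51 in WT+IFNa (SE 0.115, adjusted p = 3.69e-06). H2-K1, a classical heavy chain, averaged 1272 ± 99.5 CPM in A20iKO, 2345 ± 181 CPM in WT+IFNa and 676 ± 56.4 CPM in WT, and was called lower in A20iKO than in WT+IFNa (log2 fold change -0.88, adjusted p = 0.00063). Of the 5 calls in A20iKO over WT, those of H2-D1 (adjusted p = 0.0415) and H2-T22 (adjusted p = 0.0460) were lost without A20iKO replicate 2 or 3 or WT replicate 2 or 3 among others, with adjusted p up to 0.229, and those of B2m, H2-K1 and H2-Q4 held in all 21 alternatives. H2 genes are near copies of each other, so single heavy chains are uncertain.

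Of 7 other peptidases tested, only Blmh (bleomycin hydrolase) was called: it had 118, 117 and 110 CPM in A20iKO, 67.1, 68.8 and 86.9 CPM in WT+IFNa and 39.5, 57.6 and 49.9 CPM in WT. The A20iKO libraries lay above the rest, with a log2 fold change over WT of 1.23 (SE 0.196, edgeR adjusted p = 0.00116), called in all 21 alternatives. In WT+IFNa the log2 fold change over WT was 0.60 (SE 0.195, adjusted p = 0.157).

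Known regulators of the pathway were also measured. Nlrc5, the transactivator of class I genes, had 31.1, 26.8 and 45.4 CPM in A20iKO, 49.5, 44.4 and 40.9 CPM in WT+IFNa and 9.42, 7.22 and 6.40 CPM in WT. Both A20iKO and WT+IFNa stood above WT, by log2 fold changes of 2.16 (SE 0.301, edgeR adjusted p = 0.000403) and 2.54 (SE 0.305, adjusted p = 0.000239), and they overlapped each other. Irf1, an interferon-induced factor, averaged 191 ± 18.1 CPM in A20iKO, 251 ± 18.0 CPM in WT+IFNa and 88.0 ± 4.78 CPM in WT, and was called higher than in WT both in A20iKO (edgeR adjusted p = 0.000295) and in WT+IFNa (adjusted p = 4.27e-05). Stat2 and Irf9, parts of the complex that binds ISREs, were called higher in WT+IFNa than in WT. Stat2 had 49.0, 50.2 and 60.9 CPM in A20iKO, 183, 165 and 100.3 CPM in WT+IFNa and 39.4, 34.4 and 36.8 CPM in WT, and was called lower in A20iKO than in WT+IFNa (log2 fold change -1.49, SE 0.228, adjusted p = 0.00162). Of the 9 regulators, 3 were called higher in A20iKO than in WT and 5 in WT+IFNa than in WT, and 1 was called lower in A20iKO than in WT+IFNa.

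**Figure D5:**
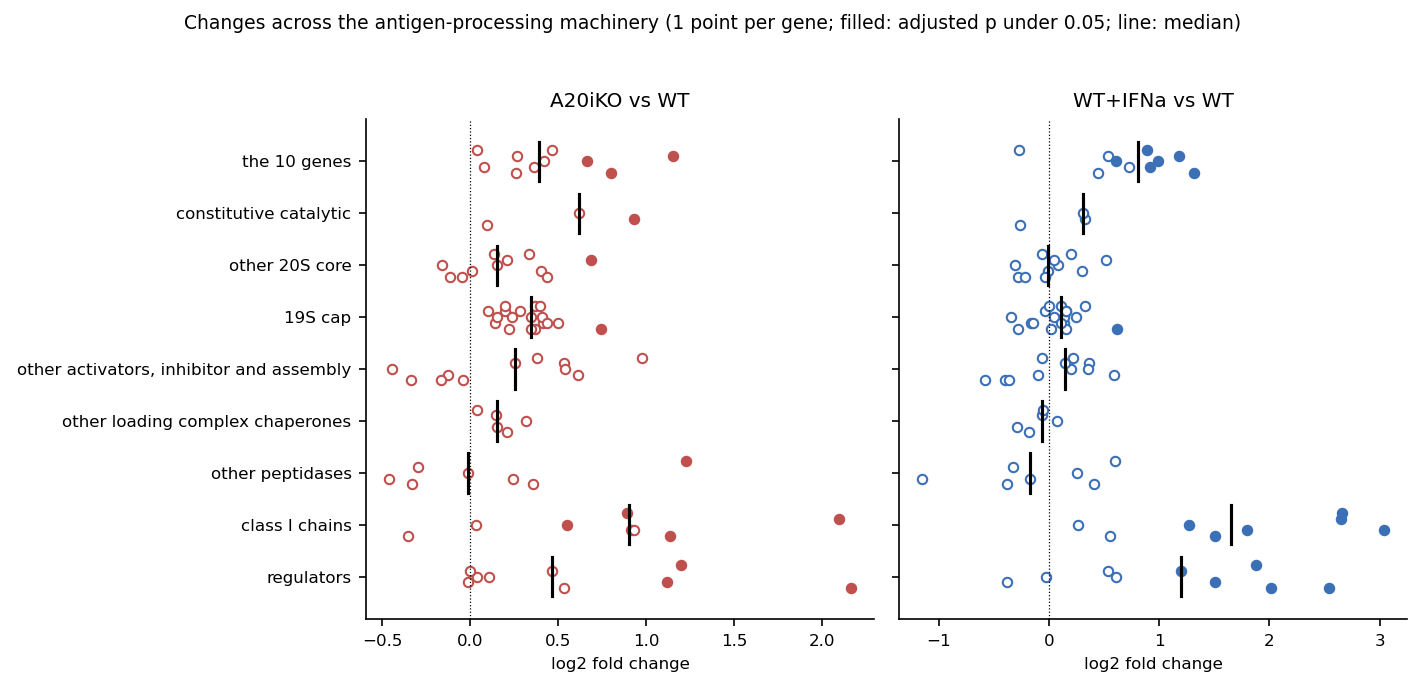
Log2 fold changes of the 10 genes and of 8 related gene lists in A20iKO over WT and in WT+IFNa over WT, 1 point per gene, filled where the edgeR adjusted p is under 0.05; vertical lines are medians. The median is 0.39 and 0.81 for the 10 genes, and 0.62 and 0.31 for the 3 constitutive catalytic subunits. It is 0.34 and 0.11 for the 19S cap, and 0.90 and 1.65 for the class I chains.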

How the data were processed

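RNA of sorted cDC2s was made into 3′ tag libraries, per the labels' protocols. The deposited values are raw counts per gene symbol and library. The submitters' processing notes name fastp 0.23.1, Bowtie2, STAR 2.7.10b, featureCounts 2.0.6 and the build GRCm39; the roles of these tools, the annotation and the strand setting are not given in the sources used. RefSeq promoter windows are of GRCm38.p6, so their coordinates apply to that build only.

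Groups and replicate numbers came from titles. Genes were kept by filterByExpr (minimum count 10, minimum total 15), which left 13251, and all 10 members passed. edgeR 4.0.16 (R 4.3.3) with TMM factors fitted all 9 libraries in 1 quasi-likelihood model with 6 residual degrees of freedom; adjustment was by Benjamini-Hochberg across the kept genes (threshold 0.05), and SEs come from the F statistic. DESeq2 1.42.0 and limma 3.58.1 served as alternatives. The fit was also run on counts simulated from the means and spread of these data. That run drew each gene on its own. It cannot show whether calls hold under differences that many genes share between libraries, such as stromal RNA. Libraries of a group differed beyond sampling noise (chi-square per degree of freedom at least 14.4), and each counted as 1 replicate. Wilson intervals cover counting error only.

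The members, the gene lists and the rule for named genes were chosen with earlier results of these data known. The rule names all members, the 3 catalytic partners, up to 4 genes of a list by smallest p, and the 4 genes most like each role group (mean of at least 10 CPM in a group). Pomp, Calr, Canx, Pdia3 and genes of overlapping span were named for their function or position. A listed regulator is not reported here by name.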

Additional observations from a re-analysis of the deposited data

How the results depend on the processing

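Over 21 alternatives, of which 1 was added after seeing the data, calls in WT+IFNa over WT held throughout for Psmb9, Psmb10 and Tap1, and in A20iKO over WT for Tapbpl. Members called higher in A20iKO than in WT numbered 3, against 5 with the stromal covariate and 5 with the stromal-rich libraries left out, and 1 to 5 with each library left out in turn (1 without A20iKO replicate 3, 5 without A20iKO replicate 1). In WT+IFNa over WT 6 were called, against 9 with DESeq2, 9 with the stromal covariate and 3 to 7 with a library left out (3 without WT replicate 3). In A20iKO against WT+IFNa 0 members were called lower, against 3 with DESeq2, 2 with limma-voom, 1 with RLE factors, 1 with upper-quartile factors, 2 with no low-count filter, 1 with a stricter filter, 1 with only the 2 groups compared, 3 with the stromal covariate, 2 with the stromal-rich libraries left out and 0 to 1 with a library left out. The cause of these shifts was not tested.

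Over all genes, 765 were called higher and 651 lower in A20iKO than in WT; with a library left out 478 to 750 were higher, and with the stromal covariate 990 were lower. In WT+IFNa over WT, 318 were higher, against 490 with DESeq2 and 502 with the stromal covariate, and 93 lower, against 210 with DESeq2, 184 by library size alone, 164 with no filter, 235 with the stromal covariate and 43 to 107 with a library left out. In A20iKO over WT+IFNa, 271 were higher, against 497 with DESeq2, 430 with no filter, 469 with only the 2 groups, 464 with the stromal covariate and 145 to 352 with a library left out; 452 were lower, against 800 with the stromal covariate and 227 to 523 with a library left out. By library size alone the median of all genes was -0.15 in WT+IFNa over WT, against -0.02 with TMM, and 286 genes were higher beside the 184 lower; in A20iKO over WT+IFNa it was 0.12, against 0.02, with 370 genes higher and 379 lower.

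Values that changed sign were all uncalled. Tap2 in A20iKO over WT was -0.027 with the stromal covariate, -0.058 without A20iKO replicate 3 and -0.061 without WT replicate 2 (-0.061 to 0.24 with a library left out), and Erap1 was -0.24 without WT replicate 1 (-0.24 to 0.24). Tapbpl in A20iKO over WT+IFNa was 0.0050 with upper-quartile factors, 0.080 by library size alone, 0.032 without A20iKO replicate 3 and 0.11 without WT+IFNa replicate 1 (-0.11 to 0.11 with a library left out).

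Same-numbered libraries did not deviate together (correlations of -0.37 to 0.24 over 9 pairs, and -0.31 to 0.36 over the 18 pairs of unlike number), so the numbers were not taken as pairs. With the replicate as a block, 3, 5 and 0 members were called in A20iKO over WT, WT+IFNa over WT and A20iKO over WT+IFNa, Tapbp in WT+IFNa being lost (adjusted p = 0.0968), and 45 genes were lower in WT+IFNa than in WT.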
